A study of Homo sapiens with 3 samples.

Results

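The 10 genes described here are 8 transcription factors that set gastric or intestinal identity in the gut epithelium (GATA4, GATA6, CDX1, CDX2, SOX2, SOX9, KLF5 and HNF4A), the transmembrane mucin MUC1 and the surface glycoprotein gene CD24. They were chosen by gene name from a table of 50868 gene identifiers, and each name matched 1 identifier. RNA was sequenced from cells labelled AGS, an established human gastric adenocarcinoma cell line, after 48 h with DMSO (the vehicle control), with 12 µM SFA or with 18 µM SFE. Each condition is 1 library, so how far cultures of one condition vary is not known, and no test between conditions was possible. The labels give no structure for the compounds, which were used at different doses.

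The stomach and intestine form from the same embryonic tube, and a small set of transcription factors keeps their linings apart. SOX2 marks the foregut and stomach, while CDX1 and CDX2 are homeobox factors of the intestine whose appearance in the stomach accompanies intestinal metaplasia. GATA4 and GATA6 are zinc finger factors of endoderm, and HNF4A is a nuclear receptor that maintains epithelial differentiation. KLF5 and SOX9 are active in proliferating and progenitor cells of the gut. MUC1 coats the apical membrane of many epithelia, and CD24 is a small, heavily glycosylated, lipid-anchored protein found on many tumour cells.

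MUC1, CD24 and GATA6 lay farthest from DMSO in at least 1 of the treated libraries, and their promoters are shown so that the letters can be read beside the values. RefSeq promoter windows (250 bases before to 50 after the annotated start, GRCh38.p14) were found for 7 of the 10 genes. MUC1 has 2 such windows and CD24 has 3, and for each the one nearest the deposited gene start is shown. The matches below are those of the shown windows. Each line runs 5′ to 3′ on the gene's strand, and capitals mark GGGCGG, the GC box bound by SP and KLF proteins, and CACCC, another KLF element, on either strand. The GATA6 start in RefSeq lies 146 bases from the deposited one.
MUC1, chr1:155192866-155193165, minus strand: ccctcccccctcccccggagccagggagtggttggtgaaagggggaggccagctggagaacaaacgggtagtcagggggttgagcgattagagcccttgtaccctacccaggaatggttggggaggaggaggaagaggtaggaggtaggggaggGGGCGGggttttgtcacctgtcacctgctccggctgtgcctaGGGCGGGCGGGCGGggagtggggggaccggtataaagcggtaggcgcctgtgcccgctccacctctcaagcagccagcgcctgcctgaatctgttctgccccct
CD24, chr6:106975578-106975877, minus strand: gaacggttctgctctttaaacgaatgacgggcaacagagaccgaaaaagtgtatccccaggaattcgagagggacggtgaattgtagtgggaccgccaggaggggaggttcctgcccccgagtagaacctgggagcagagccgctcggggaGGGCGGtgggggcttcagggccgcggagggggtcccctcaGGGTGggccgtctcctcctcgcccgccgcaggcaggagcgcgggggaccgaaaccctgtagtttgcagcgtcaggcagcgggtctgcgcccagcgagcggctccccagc
GATA6, chr18:22169339-22169638, plus strand: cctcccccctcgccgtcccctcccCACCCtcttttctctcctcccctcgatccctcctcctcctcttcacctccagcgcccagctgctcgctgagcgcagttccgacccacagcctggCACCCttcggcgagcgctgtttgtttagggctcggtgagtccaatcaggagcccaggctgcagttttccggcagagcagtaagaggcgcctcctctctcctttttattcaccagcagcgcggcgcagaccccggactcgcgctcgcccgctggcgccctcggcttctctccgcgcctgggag

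The MUC1 window held 4 matches to GGGCGG, of which 3 overlap one another, and 1 match to TATAAA. CD24 held 1 GGGCGG and 1 CACCC, and GATA6 held 2 CACCC and no GGGCGG. Of 35116 RefSeq promoter windows of the same length, 45.0% hold GGGCGG, 59.9% hold CACCC and 11.5% hold TATAAA on either strand. GATAA, a core of GATA sites, TTTATG, a CDX element, and AACAAT, a SOX element, had no match in these 3 windows and were present in 22.7%, 10.6% and 10.1% of all windows. The C and G content was 65.7% for MUC1 and 66.7% for CD24 and for GATA6, against a median of 58.7% over all windows. A match is a description of the letters and no evidence of binding.

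The DMSO library held 18767232 counts, the SFA library 13639844 and the SFE library 13644676. In what follows, values in a series are given in the order DMSO, SFA, SFE. A floor of 3 counts corresponds to 0.160 CPM (the count scaled to the library total) with DMSO and 0.220 CPM in either treated library. Levels are given as deposited FPKM, in which a count is divided by the gene's length and the library's total. A gene entered the comparisons once any of the libraries had it at 1 FPKM, which held for 11680 gene names. A call means a 2-fold or larger difference on the log2(FPKM + 1) scale, a scale that understates the change of low genes. Ratios of CPM are given with 95% exact (Clopper-Pearson) intervals. These intervals cover counting error only, and for 54.4% of all genes they excluded 1 between SFA and DMSO and for 51.7% between SFE and DMSO, so they do not single a gene out.

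In the DMSO library CD24 stood highest of the 10 genes at 33.0 FPKM, followed by KLF5 at 6.73, MUC1 at 5.43, SOX9 at 3.49 and CDX2 at 3.06 FPKM. GATA6 stood at 0.469 FPKM, CDX1 at 0.228, SOX2 at 0.191 and HNF4A at 0.0607 FPKM, and GATA4 had 0 counts. The intestinal factor CDX2 was therefore detected at 258 counts where SOX2 had 9 and CDX1 had 8. Of the 10 genes, 6 reached 1 FPKM in some library, and GATA6 did so only in the treated libraries. GATA4, CDX1, SOX2 and HNF4A did not reach it in any. In such bulk RNA fewer cells of a type and less RNA per cell cannot be told apart.

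**Figure D1:**
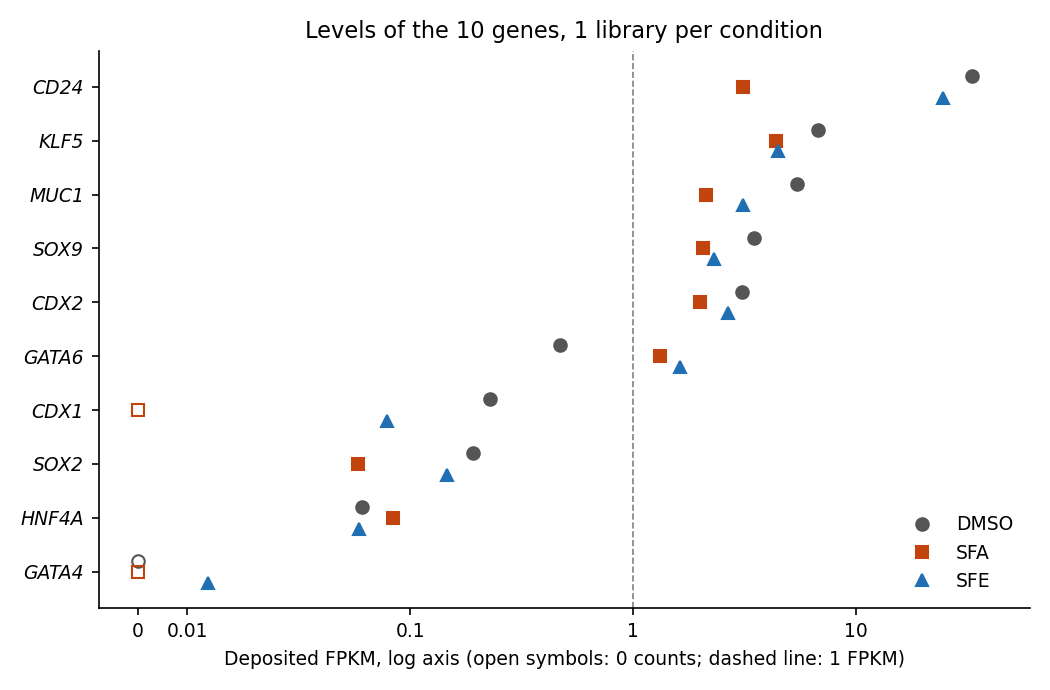
Deposited FPKM of each gene (log axis) in the DMSO, SFA and SFE libraries, 1 point per library, with open symbols at the left for 0 counts and a dashed line at 1 FPKM. CD24 at 3.09 FPKM with SFA lies apart from its values of 33.0 and 24.6 FPKM, and GATA6 is the gene above the line whose lowest value is that with DMSO.

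The deposited FPKM divides each count by a length that differs in kind between genes, which touches the order of these levels. For 9 of the 10 genes the length implied by count and FPKM was, within 1 base, the sum of all distinct exons in GENCODE 29, so that overlapping exons of alternative transcripts were counted repeatedly; the same held for 85.7% of 10847 genes with at least 50 counts in every library. CD24 was given a length of 8401 bases where its merged exons cover 3097, MUC1 (29 annotated transcripts) 10153 where they cover 4717, and KLF5 7281 where they cover 3893. SOX2 and SOX9 had the same length both ways. On merged exon length CD24 stood at 89.4 FPKM with DMSO, KLF5 at 12.6 (95% Poisson interval 11.8 to 13.4) and MUC1 at 11.7 (11.0 to 12.4), and the order of the 10 genes was the same. The intervals of KLF5 and MUC1 overlapped on this length and did not overlap on the deposited one. The intervals of SOX9 (3.08 to 3.95) and CDX2 (2.94 to 3.77) overlapped on either length. So did those of GATA6 and CDX1, CDX1 and SOX2, and SOX2 and HNF4A. An overlap of separate intervals does not decide the order, and whether these neighbours differ beyond counting error was not tested. Ratios of CPM between libraries within a gene do not depend on the length, but differences in log2(FPKM + 1) do. On merged exon length those between SFA and DMSO went from -3.05 to -3.27 for CD24 and from -1.05 to -1.20 for MUC1. That of GATA6 between SFE and DMSO went from 0.83 to 0.97. The same genes of the set were called. More genes passed the filter, and calls over all genes went from 316 to 370 with SFA and from 278 to 330 with SFE.

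**Figure D2:**
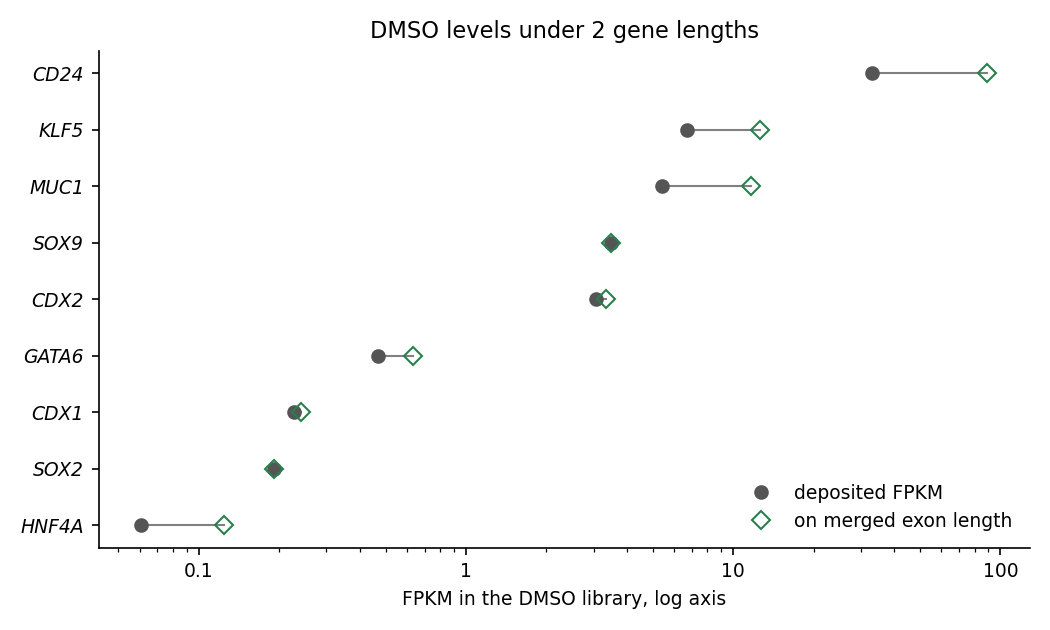
FPKM in the DMSO library (log axis) for the 9 genes with counts there, as deposited (filled circles) and recomputed on merged exon length (open diamonds). CD24 moves from 33.0 to 89.4 FPKM and MUC1 from 5.43 to 11.7, while SOX2 stays at 0.191.

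Most of the expressed genes of the set were lower in both treated libraries, and GATA6 was higher in both. Between SFA and DMSO 5 of the 6 genes at 1 FPKM or more were lower, with a median difference of -0.54 log2 units, where the median of all genes was 0.01. Of the 6 genes 2 were called, CD24 and MUC1, both lower, where 2.71% of all genes were called and 1.34% were called lower. Between SFE and DMSO the same 5 genes were lower (median -0.43, all genes 0.03), and none was called, where 2.38% of all genes were called and 1.01% were called lower. The calls between SFE and DMSO were higher in 57.6% of cases, and in 47.4% under median-ratio scaling. Both comparisons use the same DMSO library, so they are not independent of each other. As a plain ratio of CPM, GATA6 (higher) and MUC1 and CD24 (lower) differed at least 2-fold between SFA and DMSO, as did 8.03% of all genes, 4.40% higher and 3.63% lower. Between SFE and DMSO GATA6 alone did so, where 7.43% of all genes did and 4.63% were higher.

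**Figure D3:**
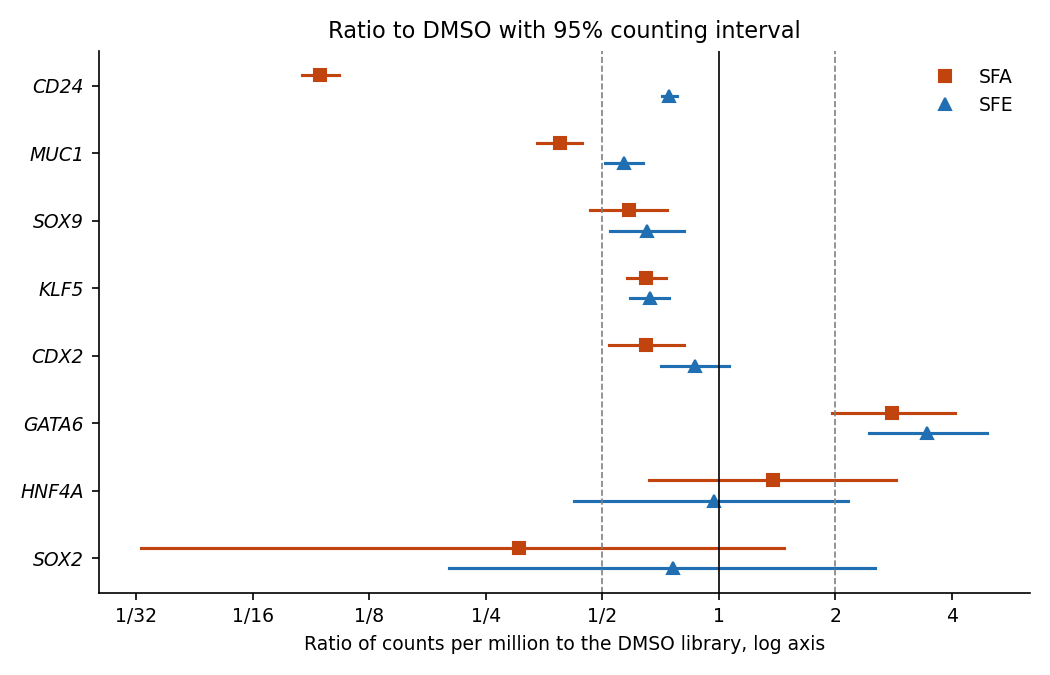
Ratio of CPM to the DMSO library (log axis) with its 95% counting interval for 8 of the genes, for SFA (squares) and SFE (triangles), with dashed lines at 2-fold. CD24 with SFA lies at a ratio 10.7-fold below DMSO, GATA6 lies above 1 with both compounds, and the intervals of HNF4A and SOX2 include 1.

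Among the factors of endoderm, GATA6 (ENSG00000141448, chromosome 18, 22169443 to 22202528, plus strand) had 47, 96 and 118 counts, or 0.469, 1.32 and 1.62 FPKM. Its share of the library was 2.81-fold higher with SFA (1.96 to 4.07) and 3.45-fold higher with SFE (2.44 to 4.95), and the treated libraries differed by 1.23-fold (0.931 to 1.63), within counting error. On the log2(FPKM + 1) scale the differences were 0.66 and 0.83, short of the 2-fold limit. With a pseudocount of 0.1 in place of 1 they were 1.32 and 1.60, and GATA6 was called in both comparisons, where 7.07% and 6.39% of all genes were called with that pseudocount. Among all genes tested 95.8% lay below GATA6 in the first comparison and 97.7% in the second. GATA6 passed the filter only through the treated libraries, so a higher value in them was favoured by the filter. The listed genes RP11-627G18.1 and RP11-627G18.2 overlap it with at most 12 counts, and the divergent GATA6-AS1 had 2, 1 and 3 counts.

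GATA4 (ENSG00000136574, chromosome 8, 11676959 to 11760002) had 0, 0 and 2 counts, so its expression was at or under the floor in every library. HNF4A (ENSG00000101076, chromosome 20, 44355700 to 44434596) had 17, 17 and 12 counts, and its ratios to DMSO were 1.38-fold higher with SFA (0.660 to 2.87) and 1.03-fold lower with SFE (0.464 to 2.36). No difference of either gene was detectable at this depth. Within the GATA family the blood and vascular factor GATA2 was the other member above 1 FPKM, at 6.22, 6.83 and 5.37 FPKM, well above GATA6 in each library.

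CDX2 (ENSG00000165556, chromosome 13, 27962137 to 27971139, minus strand), the homeobox factor that directs intestinal differentiation, had 258, 122 and 163 counts, or 3.06, 1.99 and 2.66 FPKM. It was 1.54-fold lower with SFA (1.23 to 1.92) and 1.15-fold lower with SFE (0.942 to 1.41). The SFA library was the lowest of the 3, and SFE lay within counting error of DMSO. CDX1 (ENSG00000113722, chromosome 5, 150166795 to 150184558), its paralogue, had 8, 0 and 2 counts. The Poisson intervals of CDX1 with DMSO (0.0984 to 0.449 FPKM) and with SFA (0 to 0.145 FPKM) overlapped, which does not decide whether they differ. No interval is given for the ratio with SFA, as that library had 0 counts. Set at the floor of 3 counts, CDX1 would be 1.94-fold lower with SFA. Its ratio with SFE was 2.91-fold lower (0.580 to 28.1), so no difference between SFE and DMSO was detectable at this depth. No other listed gene overlaps CDX1 or CDX2.

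SOX2 (ENSG00000181449, chromosome 3, 181711924 to 181714436), the foregut factor, had 9, 2 and 5 counts, and both intervals of its ratio to DMSO included 1 (0.677 to 31.1 and 0.394 to 4.97, on the lower side). The long noncoding SOX2-OT, which spans it, had 3, 4 and 6 counts. SOX9 (ENSG00000125398, chromosome 17, 72121020 to 72126420), a progenitor factor downstream of Wnt signalling in the gut, had 258, 110 and 123 counts, or 3.49, 2.05 and 2.29 FPKM. It was 1.70-fold lower with SFA (1.36 to 2.15) and 1.53-fold lower with SFE (1.23 to 1.91), and the treated libraries lay within counting error of each other. The listed gene SOX9-AS1, which spans SOX9, had 5, 1 and 0 counts. Of 19 SOX genes listed, 6 reached 1 FPKM and none was called, where 2.71% of all genes were called with SFA and 2.38% with SFE. SOX4, also a progenitor factor, was the most abundant at 17.5, 11.3 and 13.5 FPKM and like SOX9 was lower with both compounds, whereas SOX12 stood at 8.58, 11.5 and 11.9 FPKM.

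KLF5 (ENSG00000102554, chromosome 13, 73054976 to 73077542, plus strand), a zinc finger factor of proliferating crypt cells, had 919, 435 and 444 counts, or 6.73, 4.38 and 4.47 FPKM. It was 1.54-fold lower with SFA (1.37 to 1.72) and lower with SFE by 1.34- to 1.69-fold (95% counting interval). The treated libraries lay within 1.02-fold of each other, the closest of the 6 expressed genes, and no other listed gene overlaps KLF5. Of 18 KLF genes listed, 10 reached 1 FPKM. KLF13, a widely expressed relative, was the one called, at 19.5, 11.8 and 7.06 FPKM (2.77-fold lower with SFE, 2.59 to 2.96); other listed genes overlap it, so its value is uncertain. KLF4, which marks differentiated gut cells, stood at 1.23, 1.46 and 1.23 FPKM.

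MUC1 (ENSG00000185499, chromosome 1, 155185824 to 155192916, minus strand) had 1034, 292 and 428 counts, or 5.43, 2.11 and 3.09 FPKM. It was 2.57-fold lower with SFA (2.26 to 2.94) and 1.76-fold lower with SFE (1.57 to 1.97), and on the log2(FPKM + 1) scale the differences were -1.05 and -0.65. The SFA value lies just past the 2-fold limit. From the lowest difference, MUC1 ranked 134 of 11680 genes with SFA and 319 with SFE. The mRNA carries a tandem repeat on which reads are hard to place, and 3 other listed genes (AC234582.1, AC234582.2 and RP11-201K10.3) overlap the locus with at most 4 counts in any library. When overlapping genes are left out, MUC1 leaves the comparison and CD24 is the gene that stays called.

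CD24 (ENSG00000272398, chromosome 6, 106969831 to 106975627, minus strand) had 5196, 354 and 2822 counts, or 33.0, 3.09 and 24.6 FPKM. It was 10.7-fold lower with SFA (9.58 to 11.9) but 1.34-fold lower with SFE (1.28 to 1.40), and on the log2(FPKM + 1) scale the differences were -3.05 and -0.41. From the lowest difference, CD24 ranked 6 of 11680 genes with SFA and 798 with SFE. CD24 was the most abundant of the 10 genes with DMSO and SFE, and with SFA it stood below KLF5 on the deposited scale, whereas on merged exon length both were close, at 8.38 and 8.19 FPKM. Copies of CD24 exist elsewhere in the genome. Those listed took few reads, since CD24P4 had 1 count in each library and CD24P2 had none, and no listed gene overlaps CD24 itself. How reads that match several places were counted is not stated, so these low counts do not settle how CD24 reads were assigned.

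Few genes were low in 1 treated library alone as CD24 was, by limits set after the values were seen. At least 5-fold below DMSO with SFA were 82 genes by CPM ratio, and 16 of these lay within 1.5-fold of DMSO with SFE. Of these 16, 2 were protein-coding and overlapped no other gene, namely CD24 and the histone gene HIST1H4H, with 5596, 132 and 4657 counts. The reverse, low with SFE alone, held for 16 of 66 genes, of which 5 were protein-coding without overlap. Beside C1GALT1C1 and CITED2 they were the mitochondrially encoded MT-CO1, MT-CO2 and MT-ND5, all listed at 0 counts with SFE. How reads were counted is not stated, and its part in these values was not tested.

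**Figure D4:**
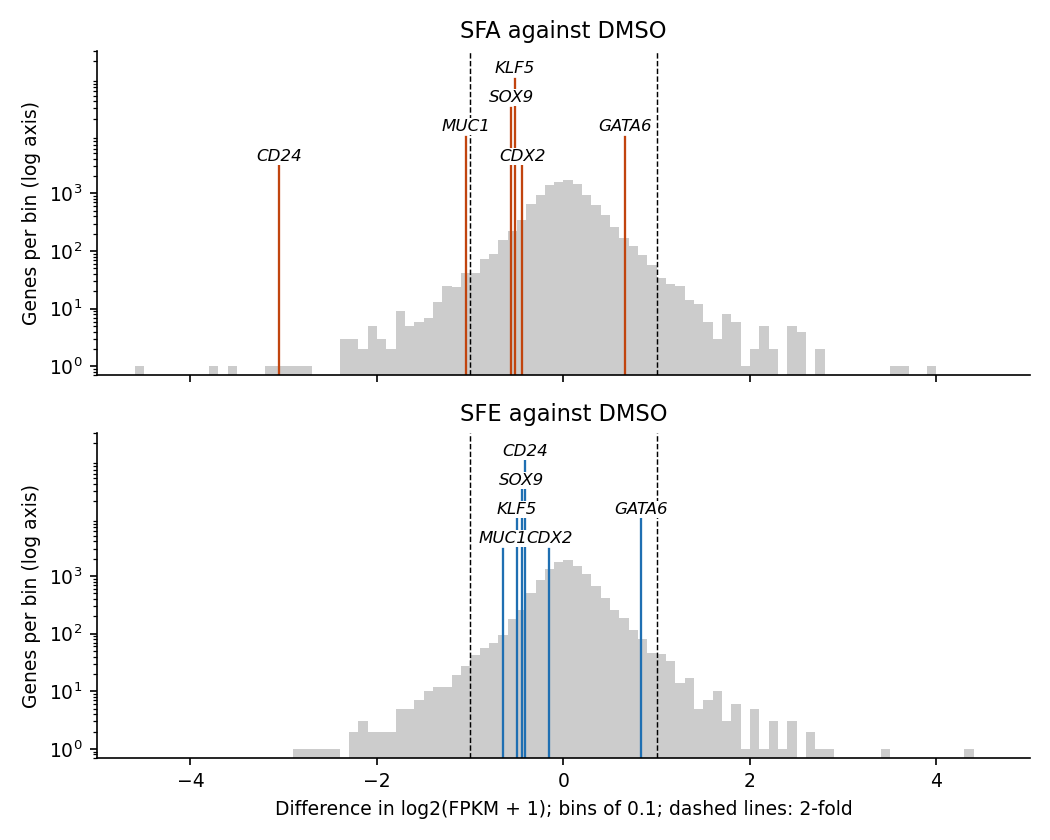
Number of genes per bin of 0.1 log2 units (log axis) against the difference from DMSO in log2(FPKM + 1), for SFA (top) and SFE (bottom), with the 6 genes at 1 FPKM or more marked by lines and dashed lines at 2-fold. CD24 at -3.05 and MUC1 at -1.05 lie beyond the limit with SFA, and no marked gene lies beyond it with SFE.

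Between SFE and SFA all 6 expressed genes were higher in the SFE library (median 0.23, all genes 0.02), but KLF5 differed by 0.02 and turned to -0.01 under median-ratio scaling. CD24 alone was called, 7.97-fold higher (7.13 to 8.93), where 1.29% of all genes were called and 0.676% were called higher. MUC1 was 1.47-fold higher (1.26 to 1.71) and CDX2 1.34-fold higher (1.05 to 1.70). The intervals of GATA6, SOX9 and KLF5 included 1, and for 32.9% of all genes they excluded it. The doses were 12 µM of SFA and 18 µM of SFE, so the compound and its dose cannot be told apart.

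The genes whose pattern over the 3 libraries was nearest to MUC1, by the distance between both differences from DMSO among 1959 protein-coding genes without overlap that reached 5 FPKM in some library, were SCD (distance 0.0995), RHOB (0.122) and WNT7B (0.141). WNT7B, a secreted Wnt ligand, stood at 7.57, 2.83 and 4.16 FPKM. None of these 1959 genes lay as near to CD24, for which the nearest, OLFML2A, was at a distance of 1.40, with 8.07, 1.71 and 3.87 FPKM. With 3 libraries such a likeness is weak.

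Genes that these factors are known to accompany were mostly below 1 FPKM. Of 26 gastric epithelial genes, among them the gastric mucins MUC5AC and MUC6, the trefoil factors, gastrokines, pepsinogen C and the proton pump, none reached 1 FPKM in any library, and 10 had 0 counts in all 3. Of 39 intestinal genes 2 reached it. ALPI, the intestinal alkaline phosphatase, had 514, 14 and 20 counts (26.7-fold lower with SFA, 15.8 to 49.2, and 18.7-fold lower with SFE, 12.0 to 30.8), and ANPEP, the brush border aminopeptidase N, stood at 2.95, 4.32 and 4.70 FPKM. MUC2, the goblet cell mucin, and VIL1 were among the 37 below the filter.

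The other 40 gut lineage factors gave 11 genes above the filter and no call in either comparison with DMSO. Over all genes 2.71% were called with SFA and 2.38% with SFE. With SFA 6 of the 11 lay above DMSO and with SFE 5 did. SOX4 and ESRRA, an orphan nuclear receptor at 14.9, 17.0 and 16.1 FPKM, were the most abundant. Of 27 transmembrane mucins and partners in their glycosylation or signalling 12 passed. MUC16, the large mucin that carries the CA125 antigen, was called lower with both compounds, at 2.24, 0.369 and 0.596 FPKM and 1862, 223 and 360 counts (6.07-fold lower with SFA, with a lower bound of 5.28, and 3.76-fold lower with SFE, 3.36 to 4.22). MUC1 and MUC16 were the 2 of 17 MUC genes above 1 FPKM. MUC16 and ALPI passed the filter only through the DMSO library, so a lower value in the treated libraries was favoured by the filter. C1GALT1C1, the chaperone of the enzyme that builds the core O-glycan of mucins, had 308, 292 and 26 counts and was called lower with SFE (8.61-fold, 5.77 to 13.4). LGALS3, a galectin that binds MUC1, stood at 20.9, 17.8 and 16.9 FPKM, and GALNT2, which starts O-glycan chains, at 15.5, 15.6 and 16.5 FPKM.

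**Figure D5:**
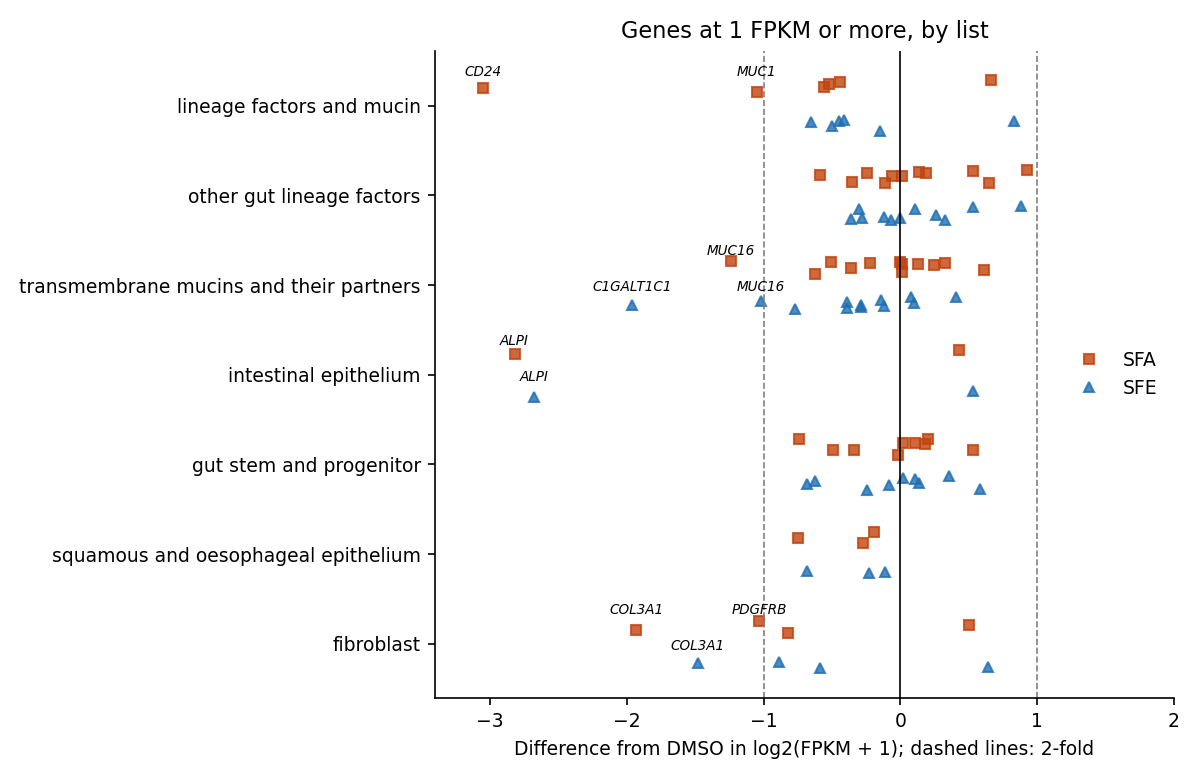
Difference from DMSO in log2(FPKM + 1) for each gene at 1 FPKM or more, by list, for SFA (squares) and SFE (triangles), with the genes past the dashed 2-fold lines named and points spread vertically for legibility. Calls in these lists are all on the lower side, with COL3A1 and PDGFRB in the fibroblast list, ALPI at -2.82 and -2.68 and MUC16 at -1.24 and -1.02. Of the calls over all genes 50.3% were higher with SFA and 57.6% with SFE. ALPI and MUC16 passed the filter only through the DMSO library. Among genes not called, GATA6, RUNX1 and CREB3L1 were at least 2-fold higher by CPM ratio with both compounds, and TNFRSF19 and TRIM29 at least 2-fold lower.

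Of 23 stem and progenitor genes 9 passed and none was called with either compound (median 0.02 in both, all genes 0.01 and 0.03). CD9, a tetraspanin, stood at 20.9, 14.6 and 13.3 FPKM, and the integrin ITGB1 at 17.4, 13.5 and 14.5 FPKM. Of 15 squamous and oesophageal genes, 3 passed and none was called. Over all genes 2.71% were called with SFA and 2.38% with SFE, so no call among so few genes says little about either list. PITX1, a homeobox factor, was the most abundant at 25.1, 21.9 and 23.1 FPKM, and S100A2 stood at 1.46, 1.04 and 1.09 FPKM.

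The epithelial label was only partly borne out by its markers. Of 8 epithelial markers 4 reached 1 FPKM, namely KRT8, KRT18, KRT7 and CLDN4, and they did not move one way. KRT18 stood at 534, 292 and 294 FPKM and KRT8 at 416, 223 and 232 FPKM, while KRT7 stood at 118, 161 and 151 FPKM and CLDN4 at 1.48, 1.97 and 1.72 FPKM. EPCAM had 27, 13 and 4 counts, KRT19 13, 6 and 3, and CDH1 40, 32 and 16. The identity of the line rests on the labels and was not tested, and the low EPCAM and KRT19 leave it in doubt. In the fibroblast list 4 of 8 markers reached 1 FPKM, and the summed level was 30.9, 16.8 and 19.9 FPKM. It was lower in both treated libraries, as were CDX2, SOX9, KLF5, MUC1 and CD24. The summed level of the 8 epithelial markers was lower in both as well, at 1071, 680 and 680 FPKM. That direction was therefore not particular to the fibroblast list. The members of that list differed in direction, and THY1 stood at 4.29, 6.48 and 7.25 FPKM (1.51-fold higher with SFA, 1.38 to 1.66, and 1.69-fold with SFE, 1.54 to 1.85). Within that list PDGFRA was at 0 and COL1A2 had 1, 0 and 0 counts, while COL3A1 had 1486, 190 and 306 counts. The part of these markers in the results was not tested. No hepatocyte, leukocyte or endothelial marker reached 1 FPKM, with highest values of 0.180, 0.815 and 0.507 FPKM.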

How the data were processed

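RNA depleted of ribosomal RNA was sequenced from 3 AGS libraries, 1 each for DMSO, SFA and SFE, per the labels' protocols. HISAT2 2.0.4, StringTie 1.2.3 and hg38 are named in the submitters' processing notes without role or order, and no source used here gives the counting tool, strand setting or annotation release. The authors deposited whole-number counts and FPKM per gene, and coordinates are as deposited, on hg38. Without a stated strand, reads of overlapping or antisense genes cannot be told apart. Among the named genes, GATA2, SOX12, ESRRA, GALNT2, ITGB1, PITX1 and THY1 also overlap other listed genes.

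From these values the log2(FPKM + 1) differences, count ratios with exact intervals, and FPKM on merged exon length (GENCODE 29) were computed in Python 3.11.15 with SciPy 1.17.1, after checks on simulated counts. These checks used genes at 5 FPKM or more with DMSO, a level that CD24, KLF5 and MUC1 alone of the 10 genes reached. They do not cover calls of lower genes. Of identifiers that share a name only the most abundant by mean FPKM was used (373 dropped). No p-value was computed, as each group has 1 library. The 10 genes and the lists were chosen with earlier results of these data known.

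Named genes are the 10 genes, up to 4 called and 2 most abundant genes of each related list, the 3 nearest patterns of each gene called against DMSO, and family members and copies. SOX12, KLF13, KLF4, GATA2, HIST1H4H and the mitochondrial genes fall under families or were chosen after their values were seen. Alternatives were the pseudocount, scaling, filters, overlapping genes, biotype, call limit, shared names and, added after seeing the data, the gene length. One epithelial marker is not reported here.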

Additional observations from a re-analysis of the deposited data

How the results depend on the processing

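No paired analysis was possible because each condition has 1 library, and none could be left out. The 2 genes called between SFA and DMSO became 1 (CD24) without overlapping genes, because MUC1 overlaps others, and 3 (with GATA6) with a pseudocount of 0.1 or a call limit of 1.5-fold. The count of 0 between SFE and DMSO became 1 (GATA6) with a pseudocount of 0.1 and 2 (GATA6 and MUC1) at a call limit of 1.5-fold. Of all genes, a pseudocount of 0.1 called 7.07% between SFA and DMSO and 6.39% between SFE and DMSO. The 1.5-fold limit called 10.0% and 8.82% in that order. CD24 stayed the 1 gene called between SFE and SFA under every alternative run.

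Over all genes, 316 calls between SFA and DMSO became 826 with a pseudocount of 0.1, 193 at a filter of 5 FPKM, 103 without overlapping genes and 1171 at 1.5-fold. For SFE against DMSO 278 became 746, 166, 80 and 1030 in that order, and for SFE against SFA 151 became 475, 77, 44 and 590, and 88 with protein-coding genes only. The filters and the call limit change how many genes can be called by construction. Of 144 alternative values for the 18 differences of the 6 expressed genes, 131 lay within the counting margin of the main value. This margin is the distance from the middle of the log2 counting interval to either end. Another 13 lay beyond it. The sign changed in 1, that of KLF5 between SFE and SFA. Changing the filters, leaving out overlapping genes, keeping protein-coding genes or summing shared names cannot alter the difference of a gene that stays in. Agreement under these settings was therefore fixed in advance. No called difference reversed. Depth limits GATA4, CDX1, SOX2 and HNF4A, which had at most 17 counts in any library.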

Other observations

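ANXA10, an annexin of gastric surface epithelium, had the highest level of the 26 gastric genes although it stayed below 1 FPKM. It had 2, 30 and 34 counts in the DMSO, SFA and SFE libraries (0.0404, 0.833 and 0.944 FPKM), a ratio of 20.6 with SFA (95% counting interval 5.24 to 178) and 23.4 with SFE (5.99 to 201). Both ratios rest on a DMSO count below the floor of 3 counts, so their size is uncertain. RUNX1, a factor of blood and epithelial development, stood at 0.317, 1.52 and 0.905 FPKM (4.79-fold higher with SFA, 3.88 to 5.95), and other listed genes overlap it. CREB3L1, a factor of secretory cells, stood at 0.787, 1.81 and 2.28 FPKM (2.30-fold higher with SFA, 1.74 to 3.06, and 2.90-fold with SFE, 2.22 to 3.81). TNFRSF19, a receptor expressed in gut stem cells, stood at 1.17, 0.298 and 0.349 FPKM. RUNX1 passed the filter only through the SFA library, CREB3L1 only through the treated libraries and TNFRSF19 only through the DMSO library. The direction of these differences was thus favoured by the filter. All 4 genes were chosen after their values were seen. None of them passed the 2-fold limit on the log2(FPKM + 1) scale or, for ANXA10, the filter.

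The nearest expressed protein-coding neighbours of the 10 genes gave mixed values. THBS3, 2.67 kb from MUC1, had 478, 164 and 182 counts and was 2.12-fold lower with SFA (1.77 to 2.55) and 1.91-fold lower with SFE (1.61 to 2.28), while KRTCAP2 on the other side was 1.19-fold higher with SFA (1.08 to 1.32). Other listed genes overlap both. PDGFRB, 10.9 kb from CDX1, had 1213, 363 and 413 counts. C6orf203, 52.6 kb from CD24, had 113, 122 and 119 counts, which is not low with SFA. EGFR, a binding partner of MUC1, stood at 7.31, 7.35 and 3.86 FPKM, lower with SFE (1.90-fold, 1.76 to 2.05) and not with SFA, and it overlaps another listed gene and did not pass the 2-fold limit. These genes were chosen after their values were seen.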
